A study of Rattus norvegicus with 8 samples.

Results

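Proteins that coat lipid droplets, join them or break down the fat inside them form a group of 10 genes, chosen by name because they are used as markers of fatty liver. The choice was made with earlier results of these data known, so shares of called members are a description and not an independent test. They are the perilipins Plin2, Plin4 and Plin5, the CIDE proteins Cidea, Cideb and Cidec, the lipases Pnpla2, Pnpla3 and Mgll, and the lipase inhibitor G0s2. Probes were matched by the gene name in the array files, where Plin2 carries its older name Adfp. Of the 10 genes, 8 had a probe and all 8 were tested, among 14854 genes tested on the array. Plin4 and Pnpla3 had no probe under their symbols, synonyms or RefSeq accessions and were not analysed here.

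The study measured liver RNA of Wistar rat pups at 21 days, with 4 methyl donor deficient pups and 4 control pups. Dams of the deficient pups ate a diet that lacked vitamin B12 and folate, and dams of the control pups ate a standard diet, in both cases from a month before pregnancy through to weaning. The diet was therefore the mother's, and the pups were exposed to it before birth and until weaning. Of the deficient pups 2 were male and of the controls 1 was male. The sources used here do not give the dam or litter of a pup, so littermates may be among them and a p-value speaks only of the spread among these 8 pups.

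In a liver cell, triglyceride is stored in droplets that bud from the endoplasmic reticulum under a single layer of phospholipid. Perilipins cover that layer and limit the access of lipases, and CIDE proteins pass lipid from small droplets to large ones. Pnpla2, also called ATGL, removes the first fatty acid from a triglyceride with the help of Abhd5 and is held back by G0s2, after which Lipe and Mgll complete the breakdown. Excess hepatic fat, fasting and the nuclear receptors of the PPAR family are known to raise several of these transcripts.

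Each value below is that of a 60-base probe, and the sequences of the probes that the results turn on are shown so that the measured piece of each transcript can be seen. Where a probe lies over more genome than its own length, it crosses a splice junction and all 60 bases are given. For the others a stretch of 30 bases is given, with the polyadenylation hexamer AATAAA in capitals where the probe holds it, which 8.4% of all 30367 probes do. Positions are those of the rat build rn4 in the files.
Plin2, chr5:105718623-105718682, minus strand, bases 8 to 37 of the probe: ctgtctgttccgAATAAAgatttgttcatg
Plin5, chrUn:25680868-25680927, a sequence that rn4 places on no chromosome, bases 1 to 30: tactttccatcacccaaaggtccaggagct
Cidea, first probe, chr18:63896918-63896975, plus strand, bases 22 to 51: cttgcatattgtAATAAAccaaacacaaga
Cidea, second probe, chr18:63888076-63895390, plus strand, 60 bases over 7315 bases of genome: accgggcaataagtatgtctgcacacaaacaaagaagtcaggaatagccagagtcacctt
Cidec, chr4:149309002-149314127, minus strand, 60 bases over 5126 bases of genome: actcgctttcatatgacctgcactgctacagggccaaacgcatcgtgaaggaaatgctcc
Pnpla2, chr1:201646954-201647013, plus strand, bases 31 to 60: acccttagtattAATAAAaactaaaacgtt
The remaining probes lie at chr15:33917058-33917289 on the minus strand for Cideb, which also crosses a junction, at chr13:109121388-109121447 on the minus strand for G0s2, and at chr4:122904962-122905021 on the plus strand for Mgll. All 9 probes were well above background in 8 of 8 samples, with none of their values marked as an outlier by the scanner software.

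The comparison asked whether these transcripts differ between livers of deficient and control pups. Plin5, Cidea and Pnpla2 rose in deficient livers, by 1.52-fold, 1.76-fold and 1.9-fold, and Plin2, Cideb, Cidec, G0s2 and Mgll did not pass the test. So 3 of 8 members (37.5%) were called higher by limma at a Benjamini-Hochberg adjusted p under 0.05, where 4.58% of all genes tested were called higher. None was called lower, where 6.6% of all genes were called lower. At an unadjusted p under 0.05, 5 of 8 members passed in either direction, Cidec the only one of them lower, as did 4107 of all 14854 genes. In either direction 11.2% of all genes were called. The median log2 change, deficient minus control, was 0.35 over the 8 members and 0.01 over all genes. All 4 deficient livers lay above all 4 controls for Plin5, Cidea and Pnpla2, a pattern that 5.51% of all genes showed, and no member had all 4 deficient livers below all controls, as 5.96% of all genes did.

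**Figure D1:**
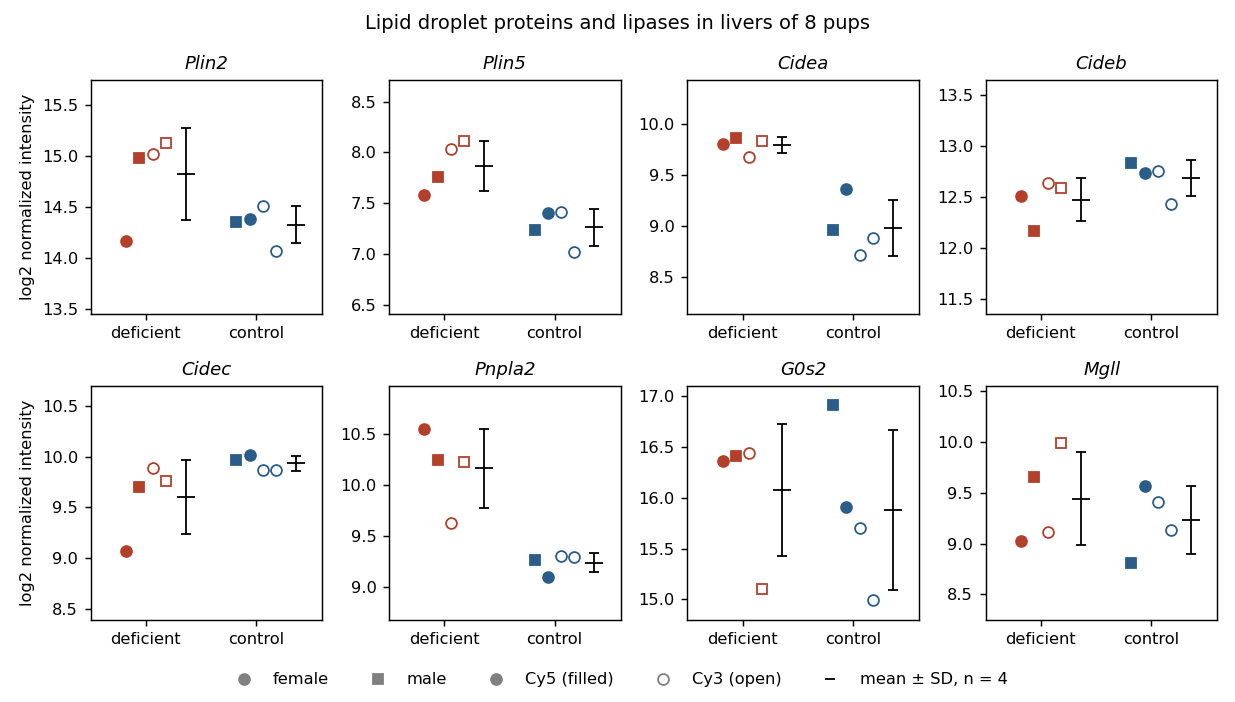
Log2 normalized intensity of each of the 8 measured members (vertical axis, a separate range for each gene) in the deficient livers on the left and the control livers on the right of each panel, with circles for females, squares for males, filled symbols for Cy5, open symbols for Cy3, and the mean ± SD of 4 animals. The groups do not overlap for Plin5, Cidea and Pnpla2, and they overlap for the other members.

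Among the perilipins, Plin5 covers droplets in tissues that burn fat and brings them into contact with mitochondria. Its log2 intensity was 7.58, 7.76, 8.03 and 8.11 in deficient livers 1 to 4, against 7.24, 7.40, 7.41 and 7.02 in control livers 1 to 4. The lowest deficient liver thus lay above the highest control. The means were 7.87 ± 0.25 in deficient livers and 7.27 ± 0.18 in control livers (SD, n = 4 each), a log2 change of 0.61 ± 0.11 (SE, 95% interval 0.35 to 0.86, limma adjusted p = 0.0128). The Plin5 signal was 2.50 to 6.25 times its local background, the lowest such ratio among the probes used for the 8 members. From Agilent's own processed signals the log2 change was 1.01 (limma adjusted p = 0.0152), and with spots of very high local background kept it was 0.43 (limma adjusted p = 0.0939). The call was also lost without deficient replicate 4 (0.57, limma adjusted p = 0.0668), without control replicate 1 (0.61, limma adjusted p = 0.0565) and without control replicate 3 (0.67, limma adjusted p = 0.0515). It was lost too without array 1 (0.59, limma adjusted p = 0.0685), without array 3 (0.63, limma adjusted p = 0.103), from within-array ratios (limma adjusted p = 0.0628) and with no array block (limma adjusted p = 0.0695).

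Plin2, also called adipophilin, is the coat protein found on droplets of nearly all cells and is the usual marker of stored fat in hepatocytes. Its log2 intensity was 14.16, 14.98, 15.02 and 15.13 in deficient livers, against 14.35, 14.38, 14.51 and 14.07 in controls. In 3 of the deficient livers Plin2 was above every control, while deficient replicate 1 lay among the controls. The log2 change was 0.50 ± 0.18 (SE, n = 4 each, 95% interval 0.09 to 0.91) and did not pass (limma adjusted p = 0.114). Without deficient replicate 1 it was 0.77 and passed (limma adjusted p = 0.00461), and without array 2, which carries that animal, it was 0.82 (limma adjusted p = 0.0113). Without array 4 it was 0.18 (limma adjusted p = 0.242). The Plin2 signal was 252.1 to 1096 times its local background.

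Cidea, known from brown fat and, in mice, from fatty liver, promotes the fusion of droplets. Its first probe, the one used in the fit over genes, had log2 intensities of 9.80, 9.86, 9.68 and 9.83 in deficient livers, against 8.96, 9.36, 8.71 and 8.88 in controls. The 4 deficient livers differed by less among themselves than the controls did, with means of 9.79 ± 0.08 in deficient and 8.98 ± 0.27 in control livers (SD, n = 4 each). The log2 change was 0.82 ± 0.09 (SE, 95% interval 0.61 to 1.02, limma adjusted p = 0.00241), and the call held in all 8 fits that left out 1 animal. The second probe, over the splice junction shown above, had 7.52, 8.0, 7.86 and 8.16 in deficient livers, against 7.20, 7.72, 7.34 and 7.21 in controls. On this probe deficient replicate 1 lay below control replicate 2, so the groups overlapped. Its signal was 2.41 to 6.27 times its local background, against 8.54 to 24.65 times for the first probe. In a fit of all 30271 probes with no filter, where 5.06% were called, the second probe had a log2 change of 0.52 ± 0.13 (limma adjusted p = 0.0591) and the first 0.82 ± 0.08 (limma adjusted p = 0.00367). Both probes were higher in the deficient sample on 4 of 4 arrays.

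Cideb, the CIDE protein of hepatocytes that takes part in loading lipid onto very low density lipoprotein, had 12.51, 12.17, 12.64 and 12.59 in deficient livers, against 12.84, 12.74, 12.76 and 12.43 in controls. It was lower in the deficient sample on every array, by log2 ratios of -0.20, -0.25, -0.15 and -0.26 on arrays 1 to 4, and the groups overlapped through control replicate 4. The log2 change was -0.22 ± 0.10 (SE, n = 4 each, 95% interval -0.44 to 0.01) and did not pass (limma adjusted p = 0.191).

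Cidec, also called Fsp27, makes the large droplets of fat cells and appears in fatty hepatocytes. Its log2 intensity was 9.07, 9.70, 9.89 and 9.76 in deficient livers, against 9.97, 10.02, 9.87 and 9.87 in controls. The 4 controls lay close together and deficient replicate 1 was far below all of them. The log2 change was -0.33 ± 0.13 (SE, 95% interval -0.62 to -0.04, unadjusted p = 0.0314 by limma) and did not pass (limma adjusted p = 0.137). It passed without deficient replicate 2 (-0.44, limma adjusted p = 0.0331), and without deficient replicate 1 it was -0.16 (limma adjusted p = 0.213). Thus the CIDE genes did not share a direction, with Cidea called higher and the point estimates of Cideb and Cidec below 0.

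Among the lipases, Pnpla2 catalyses the first step of triglyceride breakdown. Its log2 intensity was 10.55, 10.25, 9.63 and 10.23 in deficient livers, against 9.26, 9.10, 9.30 and 9.29 in controls. Every deficient liver exceeded every control, deficient replicate 3 by the least. The means were 10.17 ± 0.39 in deficient livers and 9.24 ± 0.10 in control livers (SD, n = 4 each), a log2 change of 0.93 ± 0.14 (SE, 95% interval 0.61 to 1.25, limma adjusted p = 0.00618). The call held in all 8 fits that left out 1 animal and was lost without array 3 (0.74, limma adjusted p = 0.0699).

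G0s2, which binds Pnpla2 and inhibits it, had 16.36, 16.41, 16.44 and 15.10 in deficient livers, against 16.91, 15.91, 15.70 and 14.99 in controls. The groups overlapped over nearly their whole range, and deficient replicate 4 lay far below the rest of its group. The log2 change was 0.20 ± 0.23 (SE, n = 4 each, 95% interval -0.32 to 0.71) and did not pass (limma adjusted p = 0.612). On single arrays its ratio followed the dye, at -0.47 and -0.81 on arrays 1 and 3, where the deficient sample was in Cy3, and at 0.65 and 1.42 on arrays 2 and 4, where it was in Cy5. The dye term of the fit, Cy5 minus Cy3, was 0.84 ± 0.23 in log2 (limma adjusted p = 0.299).

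Mgll, the lipase that releases the last fatty acid from monoacylglycerol, had 9.02, 9.65, 9.11 and 9.99 in deficient livers, against 8.81, 9.57, 9.41 and 9.13 in controls. The higher values in the deficient group were those of both males, replicates 2 and 4, while the male control had the lowest value of its group. The log2 change was 0.21 ± 0.18 (SE, n = 4 each, 95% interval -0.20 to 0.62, limma adjusted p = 0.5). The diet by sex term of Mgll did not pass either (limma adjusted p = 0.451), nor did that of any other member (limma adjusted p between 0.635 and 0.993).

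**Figure D2:**
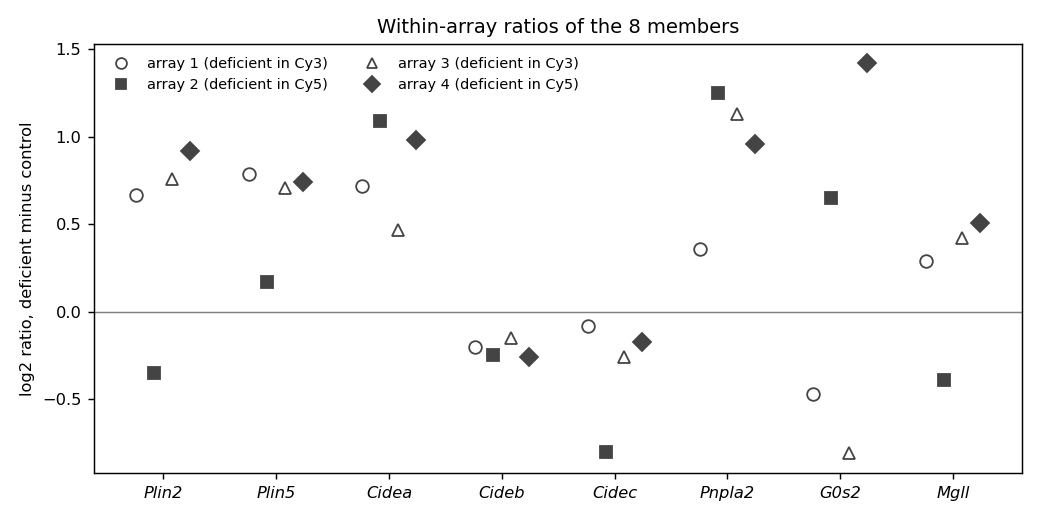
Log2 ratio, deficient minus control, of each member within each of the 4 arrays (vertical axis), with open symbols for arrays that carry the deficient sample in Cy3 and filled symbols for those with it in Cy5. Plin5, Cidea and Pnpla2 lie above 0 and Cideb and Cidec below 0 on 4 of 4 arrays, Plin2 and Mgll lie below 0 on array 2 alone, and the ratios of G0s2 split by dye.

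For Plin2, Plin5, Cidec and Mgll, array 2 carried the ratio that departed most from the others, at -0.35 for Plin2, 0.17 for Plin5, -0.80 for Cidec and -0.39 for Mgll, against 0.67 to 0.92 for Plin2, 0.71 to 0.79 for Plin5, -0.26 to -0.08 for Cidec and 0.29 to 0.51 for Mgll on the other arrays. For Cidea and Pnpla2, in contrast, array 2 had the highest ratios, 1.09 and 1.25.

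The genes whose pattern over the 8 samples was most like that of each called member were named by Pearson's r over 8 log2 values, which share the difference between the groups and so describe no more than likeness. For Plin5 they were Thap4 (r = 0.981), Neu1, a lysosomal sialidase (0.967), and Neurl3 (0.950). For Cidea they were Scpep1, a serine carboxypeptidase (0.995), Thumpd3 (0.960) and Tep1, a telomerase-associated protein (0.960). For Pnpla2 they were Adcy10, the soluble adenylyl cyclase (0.991), Polr3gl, a subunit of RNA polymerase III (0.989), and Arhgef2 (0.988). All 9 were themselves called higher in deficient livers.

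The windows of 250 bases before the transcription starts of the 3 called members are given because these genes rose together. They were taken from RefSeq on the rat build GRCr8, and the capitals mark a CCAAT box read on the other strand.
Plin5, chr9:1033285-1033534, minus strand: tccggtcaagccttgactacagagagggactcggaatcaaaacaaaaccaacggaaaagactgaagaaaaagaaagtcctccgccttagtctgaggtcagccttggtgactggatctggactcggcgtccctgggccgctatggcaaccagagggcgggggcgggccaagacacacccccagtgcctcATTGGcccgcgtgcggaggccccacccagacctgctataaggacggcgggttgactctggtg
Cidea, chr18:63164567-63164816, plus strand: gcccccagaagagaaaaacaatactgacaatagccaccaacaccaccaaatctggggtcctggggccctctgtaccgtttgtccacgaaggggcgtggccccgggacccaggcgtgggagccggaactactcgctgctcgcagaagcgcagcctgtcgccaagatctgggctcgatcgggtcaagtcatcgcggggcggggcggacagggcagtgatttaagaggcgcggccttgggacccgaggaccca
Pnpla2, chr1:205982029-205982278, plus strand: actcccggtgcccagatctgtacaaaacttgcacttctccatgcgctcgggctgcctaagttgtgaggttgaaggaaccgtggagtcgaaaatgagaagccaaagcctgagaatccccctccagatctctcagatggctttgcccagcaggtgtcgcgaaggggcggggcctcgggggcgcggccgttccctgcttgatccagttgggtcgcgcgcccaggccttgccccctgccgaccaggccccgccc
The windows hold 59.6% G and C in Plin5 and 63.6% in both Cidea and Pnpla2, against a median of 51.2% over 33469 rat promoters. In the 15 windows of the 10 members, both strands were searched for 4 motifs. The PPAR-type direct repeat called DR1, which is AGGNCA, any base and AGGNCA again, was in 0 of 15 windows and in 0.37% of all promoters, and the forkhead motif GTAAACA was in 0 of 15 and in 3.21%. The E-box CACGTG was found in Mgll and Plin2, 74 and 67 bases before the start, and in 5.59% of all promoters. CCAAT was found in Mgll, Pnpla3 and Plin5, in Plin5 at 62 bases before the start, and in 34.02% of all promoters. The 3 called members thus shared none of these letters within 250 bases, which says nothing about the factors themselves.

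The other genes of the pathway were read from 3 lists with 55 genes, of which 42 were tested. These lists, too, were chosen with earlier results of these data known. In deficient livers 7 of the 42 rose (16.7%, against 4.58% of all genes) and 9 fell (21.4%, against 6.6%), with a median log2 change of -0.08. In the list of droplet coat and biogenesis genes, 1 of 13 rose (7.69%) and 1 fell (7.69%), close to the 4.58% and 6.6% of all genes, and the median was -0.06. The gene that rose was Plin3, the perilipin that coats newly formed droplets, with 13.02, 12.95, 12.83 and 12.83 in deficient livers, against 12.04, 11.99, 12.17 and 11.95 in controls. It was higher in every deficient liver by about the same amount, with a log2 change of 0.87 ± 0.07 (SE, n = 4 each, limma adjusted p = 0.00104), and all 3 of its probes were called in the fit of all probes, at 0.87, 0.61 and 0.66. Rab18, a GTPase of the droplet surface, fell by 0.37 ± 0.10 in log2 (limma adjusted p = 0.0473), a call that held in 1 of 8 fits that left out 1 animal, the one without deficient replicate 2. Fitm2 and Bscl2 (seipin), which act in droplet budding, Hsd17b11, a droplet enzyme, and Cav1, a membrane scaffold, had log2 changes of 0.27, -0.17, 0.21 and -0.36 and did not pass (limma adjusted p between 0.154 and 0.234). Plin1, the perilipin of fat cells, was not well above background in any sample.

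Of the lipases and their cofactors 3 of 18 rose (16.7%, against 4.58% of all genes) and 6 fell (33.3%, against 6.6%), with a median log2 change of -0.15. Ces1d, a carboxylesterase of the endoplasmic reticulum that hydrolyses triglyceride, had 10.07, 10.22, 12.27 and 10.95 in deficient livers, against 13.23, 13.15, 13.14 and 12.38 in controls. It fell by 2.10 ± 0.31 in log2 (SE, n = 4 each, limma adjusted p = 0.00566), and deficient replicate 3 lay just below the lowest control. Its relative Ces1f fell by 1.20 ± 0.20 (limma adjusted p = 0.00888), Faah, which degrades fatty acid amides, by 0.74 ± 0.07 (limma adjusted p = 0.00167) and Aadac, arylacetamide deacetylase, by 0.67 ± 0.15 (limma adjusted p = 0.0232). The ratios of Faah split by dye, at -0.36 and -0.42 on arrays 1 and 3 (deficient in Cy3) and -1.12 and -1.06 on arrays 2 and 4 (deficient in Cy5). The call of Ces1f was lost without control replicate 3 (limma adjusted p = 0.0647), and that of Aadac without deficient replicate 4 or control replicate 2, 3 or 4 (limma adjusted p between 0.0678 and 0.111). Without array 3 the calls of Ces1d, Ces1f and Aadac were lost (limma adjusted p = 0.0711, 0.0782 and 0.203). Without array 2 those of Ces1f and Aadac were lost (limma adjusted p = 0.0512 and 0.0855). Because carboxylesterase genes are near copies of each other, the signals of Ces1d and Ces1f may not be fully separate.

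Lpl, the lipoprotein lipase that releases fatty acids from blood lipoproteins, rose by 1.39 ± 0.20 in log2 (limma adjusted p = 0.0052), with 11.66, 10.43, 9.97 and 10.30 in deficient livers and 9.14, 9.74, 9.36 and 8.56 in controls. Its ratios were 0.83 and 0.56 on arrays 1 and 3, where the deficient sample was in Cy3. They were 2.29 and 1.87 on arrays 2 and 4, where it was in Cy5. Pnpla7, a lysophospholipase related to Pnpla2, rose by 0.85 ± 0.12 (limma adjusted p = 0.00563). The calls of Lpl and Pnpla7 were lost without array 3 (limma adjusted p = 0.0532 and 0.0638), and that of Lpl also with no array block (limma adjusted p = 0.0515). The remaining called genes, named after their values were seen, were Abhd6, a monoacylglycerol lipase, at 0.48, Lypla1, a lysophospholipase, at -0.41, and Lipc, hepatic lipase, at -0.50. Their limma adjusted p was 0.0384, 0.0312 and 0.0429, and for each of them the groups overlapped. The ratios of Lipc were 0.19 and -0.13 on arrays 1 and 3 (deficient in Cy3), against -1.31 and -0.75 on arrays 2 and 4 (deficient in Cy5). Fits with 1 animal left out are not given for these genes. Genes that act with Pnpla2 were also picked out after their values were seen. Abhd5, its activator, was at -0.26 ± 0.14 (limma adjusted p = 0.278) and Lipe, hormone-sensitive lipase, at 0.03 ± 0.08 (limma adjusted p = 0.815), and neither passed.

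Among genes of glycerolipid esterification, which build the triglyceride that fills droplets, 3 of 11 rose (27.3%, against 4.58% of all genes) and 2 fell (18.2%, against 6.6%), with a median log2 change of 0.10. The pair of enzymes for the last step moved in opposite directions. Dgat1 rose by 0.51 ± 0.09 in log2 (limma adjusted p = 0.0131) and Dgat2 fell by 0.51 ± 0.11 (limma adjusted p = 0.02). Dgat1 was at 12.08, 12.19, 11.77 and 12.24 in deficient livers, against 11.60, 11.60, 11.49 and 11.57 in controls, without overlap. Dgat2 was at 14.34, 14.55, 15.06 and 14.54 in deficient livers, against 15.07, 15.03, 15.08 and 15.34 in controls, where deficient replicate 3 reached the controls. Agpat3 rose by 0.47 ± 0.10 (limma adjusted p = 0.0221), with a second probe at 0.19 that did not pass (limma adjusted p = 0.111 over all probes). Agpat2, an enzyme of the second step, fell by 0.90 ± 0.23 (limma adjusted p = 0.0391), and Mogat2, which esterifies monoacylglycerol, rose by 1.05 ± 0.27 (limma adjusted p = 0.0426). In the fit of all probes neither of these probes passed (limma adjusted p = 0.0669 and 0.0731). A second probe of Mogat2 was at 0.055 and was well above background in 0 samples. Gpam, the enzyme of the first step, was at -0.33 ± 0.09 and did not pass (limma adjusted p = 0.0505).

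Each of these esterification calls was lost when certain single animals were left out. Dgat1 lost its call without deficient replicate 4 or control replicate 2 or 3, Agpat3 without deficient replicate 4 or control replicate 1, 2 or 3, and Dgat2 without deficient replicate 4 or any 1 control (limma adjusted p between 0.0568 and 0.112 in these fits). Agpat2 kept its call only without deficient replicate 2 or 3, and Mogat2 only without deficient replicate 1 or 2 (limma adjusted p up to 0.163 in the others).

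**Figure D3:**
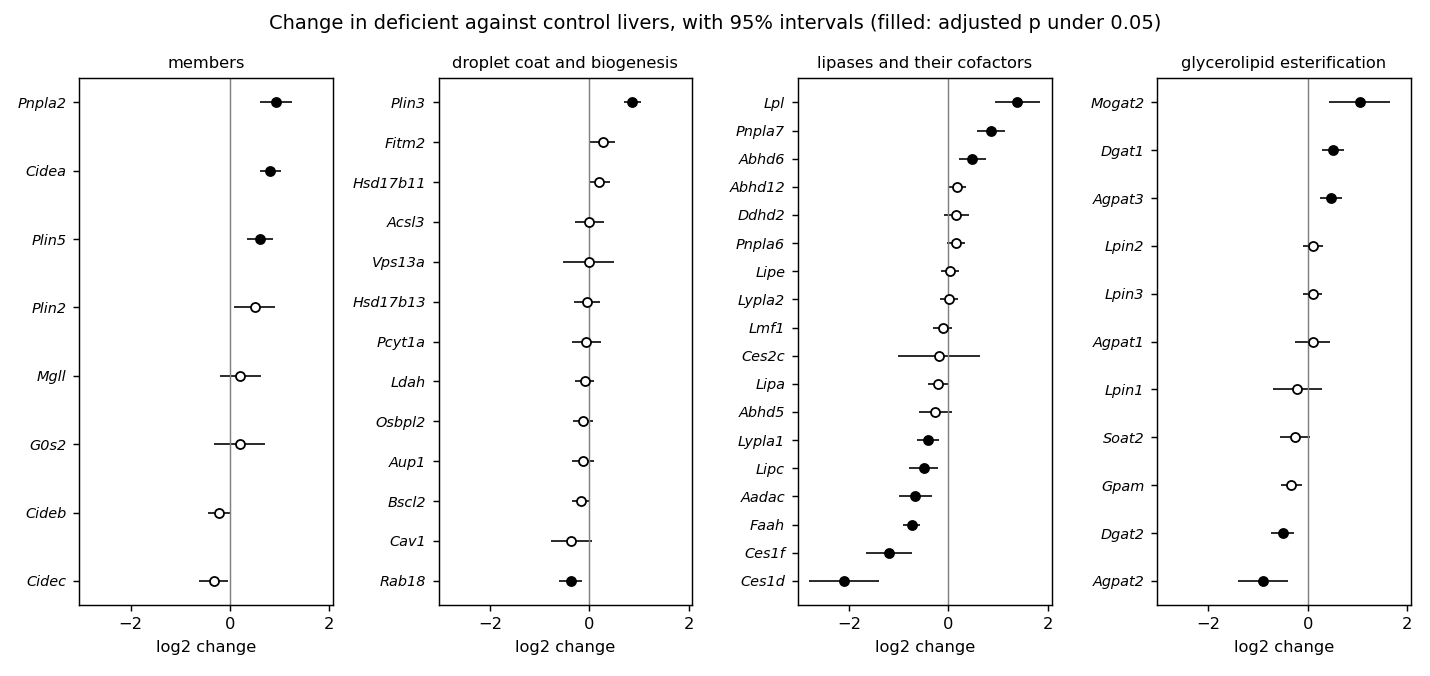
Log2 change, deficient minus control (horizontal axis), with 95% intervals for the 8 measured members and for the tested genes of the 3 related lists, filled where the limma adjusted p was under 0.05. Of the called genes in the lists, Plin3, Lpl, Pnpla7, Abhd6, Dgat1, Agpat3 and Mogat2 lie to the right, as do Plin5, Cidea and Pnpla2. Rab18, Ces1d, Ces1f, Faah, Aadac, Lypla1, Lipc, Dgat2 and Agpat2 lie to the left.

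The tissue label was checked with marker genes. All 8 hepatocyte markers were well above background in 8 of 8 samples, and 5 of the 8 fell in deficient livers, where 6.6% of all genes fell. Those were Ttr, Tf, Serpina1, Fgb and Ahsg, while Alb at -1.01, Apoa1 at 0.35 and Apob at 0.24 did not pass. The summed level of the markers (log2 of the summed intensities) was 19.98 to 20.51 in deficient and 20.58 to 20.87 in control livers. In whole liver, fewer cells of a type and less RNA per cell cannot be told apart. Cidea, Plin1, Lpl and Lipe are also genes of fat cells. Of 8 white adipocyte markers 4 were tested and 1 rose, Lpl, with a summed level of 12.30 to 13.12 in deficient and 11.94 to 12.46 in control livers. The defining markers Plin1 and Lep were above background in no sample, and Adipoq and Retn only in control replicate 4. Of 6 brown adipocyte markers Ucp1, Elovl3 and Zic1 were above background in no sample, and the 2 that rose were Cidea itself and Cpt1b, so its summed level, 11.80 to 12.96 in deficient and 10.05 to 10.47 in control livers, is largely theirs. Skeletal muscle markers summed to 11.44 to 13.63 in deficient and 10.77 to 11.18 in control livers, with deficient replicate 3 at 13.63 and 1 of 5 tested markers called. The called marker was Tnnc2, at 10.93, 10.24, 11.43 and 10.36 in deficient livers, against 7.46 to 8.31 in controls. Ckm was at 6.43, 6.31, 10.22 and 6.63 in deficient livers, against 6.17 to 6.98 in controls. Tnni2 was at 8.58, 8.04, 11.50 and 8.40, against 8.01 to 8.71. Both stood out in deficient replicate 3 alone, so the higher sums of the other deficient livers are largely those of Tnnc2. Without deficient replicate 3 the same 3 members were called. Of 7 stellate cell markers tested 1 fell, Lrat, and of 6 neutrophil markers 4 fell, where 6.6% of all genes fell. Of 6 erythroid markers 1 rose, Tfrc, at 1.55 in log2 (limma adjusted p = 0.00618). Hbb, Alas2, Ahsp and Slc4a1 were at -0.47, -0.20, -0.61 and -0.51 and Epor at 0.09, and none of them passed. Erythroid markers summed to 15.96 to 17.21 in deficient and 16.65 to 17.69 in control livers. Of 7 Kupffer cell markers limma called 0, with 0 at an unadjusted p under 0.05. The part of these markers in the results was not tested.

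**Figure D4:**
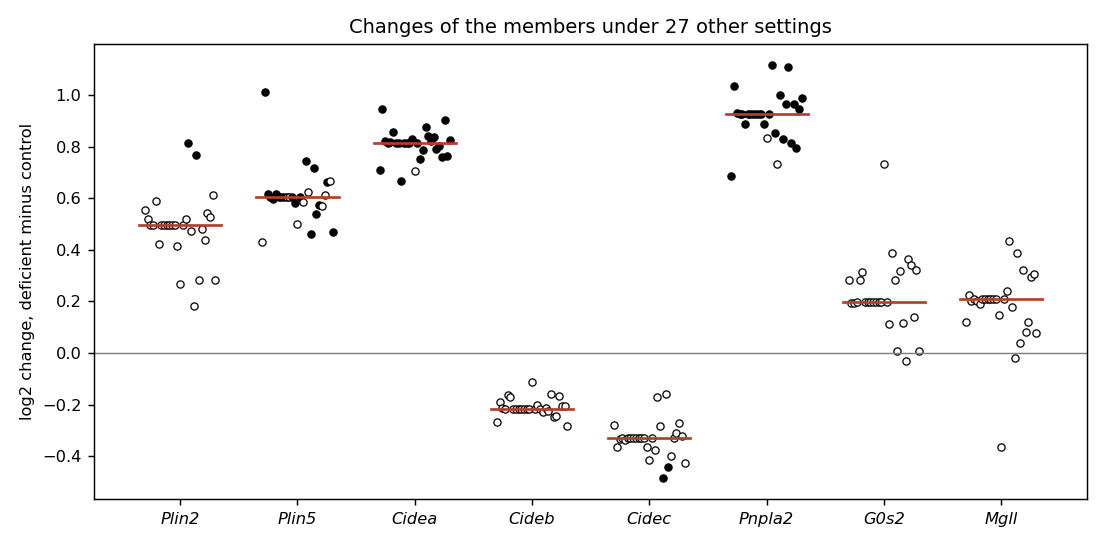
Log2 change of each member, deficient minus control (vertical axis), in 27 fits that each altered a processing step or left out samples, as points filled where the limma adjusted p was under 0.05, with the reported value as a bar. Cidea stayed between 0.67 and 0.95 and Pnpla2 between 0.69 and 1.12, Plin5 lay between 0.43 and 1.01, and the values of G0s2 and Mgll crossed 0.

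Over these 27 fits Cidea lost its call in 1 and Pnpla2 in 2, while Plin5 lost it in 9. With females alone, which leaves 2 deficient and 3 control animals, no member was called by limma, where 62 genes of the whole array were. At an unadjusted p under 0.05 by limma 4 members were higher, namely Plin5, Cidea, Pnpla2 and G0s2. The share of all genes at that threshold in this fit is not given here. The log2 changes of Plin5, Cidea, Pnpla2 and G0s2 were 0.50, 0.71, 0.83 and 0.73 (limma adjusted p = 0.251, 0.112, 0.159 and 0.21). Plin2 and Cidec were called in 2 fits each, and Cideb, G0s2 and Mgll in none.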

How the data were processed

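The deposited files hold the spot intensities of 2-colour Agilent rat arrays, which per the submitters' processing notes were read with Agilent Feature Extraction 10.7.1.1. A single slide carries the 4 arrays, each with 1 deficient and 1 control sample, matched here because the deposited 2-colour scanner data of both samples were the same. A value table deposited by the authors holds linear normalized intensities with medians of 183.2 to 192.1 and served as an alternative, since the sources used here do not give its method.

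Median signals were 152.5 to 299 over backgrounds of 33 to 58, 59.1% to 65.5% of spots were well above background and none was saturated. The number of arrays limits the precision.

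With limma 3.58.1 in R 4.3.3, 74 spot values with a local background over 5 times the channel median were left out, and signals underwent normexp (offset 50), loess within arrays (control spots at weight 0) and Aquantile between arrays, to give log2 values. This sequence follows an earlier account of these data, in which the background step was added after results were seen. Outlier spots were left out, spots of a probe averaged, probes well above background in at least 4 of 8 samples kept, and the brightest probe of a gene used. Diet and dye were terms and the array a random block (correlation 0.421) in lmFit and eBayes, with Benjamini-Hochberg adjustment over all genes. The fit was tested on simulated data, in which 200 of 14854 genes changed. It called 55% of them at a log2 change of 0.5 and 99% at a log2 change of 1, with 10 false calls each time. The reported fit called 11.2% of all genes, a larger share than was changed in the simulation, so these rates need not hold for it.

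Replicate numbers follow the order of the samples and pair no animals. The members and lists were chosen with earlier results of these data known. Members with a probe were all named, as were the up to 6 smallest-p genes in every list and, for each called member, the 3 genes with the highest correlation. Alternatives covered background, normalization, filter, probe choice, model terms, sex and each array or animal left out.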

Additional observations from a re-analysis of the deposited data

Results flagged for a closer look

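A sample far from the others of its group was seen in 5 of the 52 groups of 4 checked over 26 genes, with the gap to the nearest sample over the range above Dixon's 95% critical value for 4 samples. Chance alone gives about 1 in 20 such groups. Plin2 was 14.16 in deficient replicate 1, with the next deficient liver at 14.98 (ratio 0.847). Pnpla2 was 9.10 in control replicate 2, with the next control at 9.26 (ratio 0.841), and the call of Pnpla2 held without that animal. G0s2 was 15.10 in deficient replicate 4, with the next deficient liver at 16.36 (ratio 0.939). Ces1d was 12.38 in control replicate 4, with the next control at 13.14 (ratio 0.9), and Mogat2 was 9.74 in deficient replicate 1, with the next deficient liver at 8.40 (ratio 0.843).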

How the results depend on the processing

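Over the 27 alternatives, the members called higher numbered 3 in most and 0 by limma with females alone. In that fit 4, G0s2 among them, were higher at an unadjusted p under 0.05, with no share of all genes beside it. Members called higher numbered 1 without array 3, and between 2 and 4 with 1 animal left out. Members called lower numbered 1 without array 4, and between 0 and 1 with 1 animal left out. Of single members, G0s2 had a log2 change below 0 without deficient replicate 3, its range with 1 animal left out being -0.032 to 0.366, and Mgll was below 0 with females alone (-0.363) and without array 4 (-0.018), none of them called.

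Genes called over the whole array numbered 1661 as reported, 954 with high-background spots kept, 469 from within-array ratios, 400 with no array block, 838 with no dye term, 826 with sex added, 62 with females alone, 919 without array 2, 210 without array 3, 2878 without array 4, and between 384 and 3547 with 1 animal left out.

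In the droplet coat list 0 rose with females alone, and 1 rose in every fit without 1 animal. Apart from the fits with 1 animal left out, 0 fell there in 14 alternatives, namely high-background spots kept, Agilent's processed signals, loess only, quantile normalization, the authors' table, no filter, within-array ratios, no block, no dye term, sex added, females alone, and arrays 1, 2 or 3 left out. With 1 animal left out, 1 fell without deficient replicate 2 and 0 fell in every other such fit.

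In the lipase list 1 rose with no block, 0 with females alone and 0 without array 3, against 2 to 4 with 1 animal left out. There 3 fell from within-array ratios, with no block, with no dye term and with sex added, 0 with females alone, 2 without array 2, 1 without array 3, and 2 to 8 with 1 animal left out.

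In the esterification list 1 rose with high-background spots kept and with no dye term, and 0 rose from within-array ratios, with no block, with females alone and without array 2 or 3, against 0 to 3 with 1 animal left out. There 1 fell with high-background spots kept, with processed signals and with no filter, 0 fell from within-array ratios, with no block, with no dye term, with sex added, with females alone and without array 2 or 3, and 0 to 2 fell with 1 animal left out.

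The cause of these shifts was not tested. With 4 arrays the intervals are wide, Plin5 lies close to background, and the fits without an array or with females alone use fewer samples. The replicate numbers pair no animals. Samples were paired by their array, through the array block of the reported fit and through the within-array ratios above, by which 2 members were called higher.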
